A study of Mus musculus with 6 samples.

Results

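The PDGF family was described in differentiated mouse preadipocytes in which Tcf7l2 had been deleted and in cells of the same line that kept it. The family comprised 7 genes chosen by symbol, 4 ligand genes (Pdgfa, Pdgfb, Pdgfc and Pdgfd), 2 receptor genes (Pdgfra and Pdgfrb) and the receptor-like gene Pdgfrl, and all 7 were found among the 49671 genes of the count table. The family was picked after the fall of Pdgfd in this same comparison was known from an earlier analysis of these data. The differences of its members between the groups are therefore given as a description, with standard errors and without p-values.

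RNA-seq had been performed on 6 libraries. The 3 knockout libraries came from cells given 4-hydroxytamoxifen, which activates the CreERT2 recombinase carried by the line, and the 3 control libraries came from cells given ethanol, which the labels call wild type. Both groups shared sorted preadipocytes (CD34+, Sca1+ and CD29+, with cells stained for CD31, CD45 or Ter-119 removed) from the inguinal fat of C57BL/6 mice aged 3 months with floxed Tcf7l2, 1 line immortalised with SV40 large T antigen, 24 h of treatment 2 days before differentiation, and harvest on day 8 of differentiation with dexamethasone, isobutylmethylxanthine and insulin. The labels add an agent at 5 nM under a code that differs from library to library, and whether the agent itself differed between libraries is not clear. Control cells thus also carried floxed alleles, CreERT2 and large T antigen, and deletion and drug exposure cannot be told apart. Whether the 3 libraries of a group stem from different cultures is not stated, so the errors cover the spread between libraries and may be technical.

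PDGFs are dimeric growth factors that signal through a pair of class III receptor tyrosine kinases, alpha and beta. The A and B chains are processed inside the cell and secreted in active form, whereas the C and D chains carry a CUB domain that must be cut off outside the cell before they bind a receptor. PDGF-AA and PDGF-CC act mainly on the alpha receptor, PDGF-BB on both, and PDGF-DD mainly on the beta receptor. In fat, the alpha receptor marks adipocyte progenitors and fibroblasts and the beta receptor marks mural cells and other stromal progenitors, and sustained signalling by either receptor is known to oppose adipocyte differentiation.

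Total counts ran from 26621293 to 33484764 per library. Tcf7l2, the targeted gene, was at 5.65, 6.85 and 5.86 CPM (counts per 1000000, TMM-scaled) in the knockout libraries, against 7.71, 6.13 and 9.11 CPM in the control libraries, with a log2 fold change of -0.32 (SE 0.14) and an adjusted p of 0.125 in edgeR. It was called only without control replicate 2 (log2 fold change -0.46, edgeR adjusted p = 0.0322, against 0.0561 to 0.377 under the other alternatives). Counts summed over a whole gene can miss a deleted exon, so these values check neither label. Knockout replicate 2 and control replicate 3 stood apart from the other 4 libraries on the second principal component (-14.1 and -15.1, against 4 to 12), which held 15.9% of the variance. All 8 adipocyte markers examined were called higher in knockout cells, against 11.9% of all tested genes. Their summed level was 8534 to 10334 CPM in knockout and 5897 to 6134 CPM in control libraries. Of 9 markers of preadipocytes and fibroblasts other than the PDGF receptors, 0 were called higher and 2 lower. The shares over all tested genes were 11.9% higher and 10.5% lower. The sums of these 9 markers overlapped, at 2640 to 3330 CPM in knockout and 2638 to 3008 CPM in control libraries. In bulk RNA, fewer cells of a type and less RNA per cell cannot be told apart.

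The promoters of the pair of ligand genes whose levels differed most between the groups, in opposite directions, are shown for context, because the deleted factor belongs to the TCF/LEF family, whose HMG box binds DNA around the letters CTTTG. RefSeq windows were matched for 4 of the 7 members (Pdgfa, Pdgfc, Pdgfd and Pdgfra). The 250 bases before the RefSeq start are printed 5′ to 3′ on the plus strand of GRCm38.p6, chr9:6168236-6168485 for Pdgfd and chr3:81036166-81036415 for Pdgfc, with capitals marking CTTTG or its reverse complement.
Pdgfd: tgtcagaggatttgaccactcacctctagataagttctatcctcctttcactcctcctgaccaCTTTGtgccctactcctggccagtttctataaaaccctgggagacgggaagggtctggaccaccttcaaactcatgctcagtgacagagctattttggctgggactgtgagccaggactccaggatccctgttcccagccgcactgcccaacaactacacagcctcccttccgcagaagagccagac
Pdgfc: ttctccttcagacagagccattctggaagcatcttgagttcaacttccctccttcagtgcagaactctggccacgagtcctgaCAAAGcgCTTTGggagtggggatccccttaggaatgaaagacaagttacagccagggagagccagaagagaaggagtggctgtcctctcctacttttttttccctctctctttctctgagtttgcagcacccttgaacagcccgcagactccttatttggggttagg

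The Pdgfd window held 1 such match, 187 to 183 bases before the start, and the Pdgfc window held 2, at 167 to 163 and 160 to 156 bases, on opposite strands and without overlap. The Pdgfra window held 1, and each of the 2 Pdgfa windows, 1 per annotated RefSeq start, held 0. Both Pdgfa windows lie within the GENCODE gene and hold 86 and 93 of its exonic bases, against 0 in the windows of Pdgfd, Pdgfc and Pdgfra. CTTTG occurred on either strand in 48.6% of all 32851 RefSeq windows of 250 bases. The longer forms CTTTGA, in 13.8% of windows, and CTTTGAT, in 3.2%, which contain the shorter one, were in none of the 5 windows of the family. The windows of Pdgfd, Pdgfc and Pdgfra were 53.6%, 50.8% and 54.4% G and C, near the median of 52.4%, and those of Pdgfa were 66.4% and 72.4%. A match is not evidence of binding, and these windows say nothing of distal elements.

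Pdgfd encodes the D chain. Pdgfd (GRCm38 chromosome 9, 6168584 to 6378850, plus strand) was at 36.5, 32.6 and 35.1 CPM in the knockout libraries, against 78.8, 78.1 and 81.7 CPM in the control libraries. The groups were far apart, with every knockout library below the lowest control library, and within each group the libraries lay close together. The log2 fold change was -1.19 (SE 0.056), a level 2.29-fold lower in knockout cells, and Pdgfd stood 49th in size among the 1568 genes called lower. Without knockout replicate 2 and control replicate 3, in which Pdgfd was at its lowest and highest within the groups, the log2 fold change was -1.13 (SE 0.053). The rise of the adipocyte markers moved with this difference, and their part in it was not tested.

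Pdgfc, which encodes the C chain, was higher in knockout cells. Pdgfc (chromosome 3, 81036416 to 81214040, plus strand) was at 7.29, 8.6 and 7.92 CPM in the knockout libraries, against 4.65, 4.29 and 5.27 CPM in the control libraries. Again no library of one group reached the range of the other. The log2 fold change was 0.75 (SE 0.11), 1.68-fold higher, on 212 to 270 counts per knockout library and 121 to 156 per control library. It was 0.76 (SE 0.13) without the 2 libraries that stood apart. The 8 adipocyte markers were higher in the same libraries. Their log2 fold changes were 0.32 (Pparg), 0.65 (Fabp4), 0.68 (Cfd), 0.75 (Adipoq, Plin1 and Cidec), 0.81 (Slc2a4) and 1.93 (Lep). The part of these markers in the difference of Pdgfc was not tested.

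Pdgfa, the gene of the A chain, was at 11.2, 10.6 and 11.0 CPM in the knockout libraries, against 9.17, 11.1 and 8.59 CPM in the control libraries. Control replicate 2 lay within the knockout range, so the groups overlapped. The log2 fold change was 0.19 (SE 0.10). Without control replicate 2 it was 0.29 (SE 0.098), and without control replicate 3 it was 0.11 (SE 0.10). Pdgfa lies on chromosome 5 (138976014 to 138997370, minus strand). An antisense transcript, 6330403L08Rik, at 2.74 CPM on average, covers 26.07% of its exonic sequence, and whether reads were counted by strand is not stated.

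Pdgfb, the gene of the B chain, was close to undetected. Pdgfb (chromosome 15, 79995874 to 80014977, minus strand) had 0, 1 and 4 counts in the knockout libraries, against 1, 1 and 0 counts in the control libraries, and it was too low to be tested. A count of 0 allows up to 3 counts, or 0.1 CPM in knockout replicate 1 and 0.113 CPM in control replicate 3, counting error only. No fold change was computed. Endothelial cells and platelets, known sources of PDGF-B in tissue, had been removed by the sort as far as they carry CD31. The part of the sort in the level of Pdgfb was not tested. Of 7 endothelial markers, Pecam1 (0.159 CPM in knockout and 0.0937 CPM in control cells) and Cdh5 (0.0124 CPM in knockout and 0.0225 CPM in control cells) were near 0 and Cldn5 was at 0. Kdr (17.6 CPM in knockout and 13.6 CPM in control cells) and Tek (9.35 CPM in knockout and 10.2 CPM in control cells) were detected. Kdr was called higher (log2 fold change 0.38, edgeR adjusted p = 0.00363) and Tek was not called. The 7 markers summed to 26.7 to 28.1 CPM in knockout and 23.4 to 25.1 CPM in control libraries. Of 6 erythroid and platelet markers the 3 haemoglobin genes were at 0, and the platelet gene Pf4 averaged 0.0111 CPM in knockout cells and was at 0 in control cells. Itga2b, the gene of a platelet integrin, was detected, at 39.4 CPM in knockout and 67.0 CPM in control cells. It was called lower (log2 fold change -0.77, edgeR adjusted p = 2.06e-06).

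**Figure D1:**
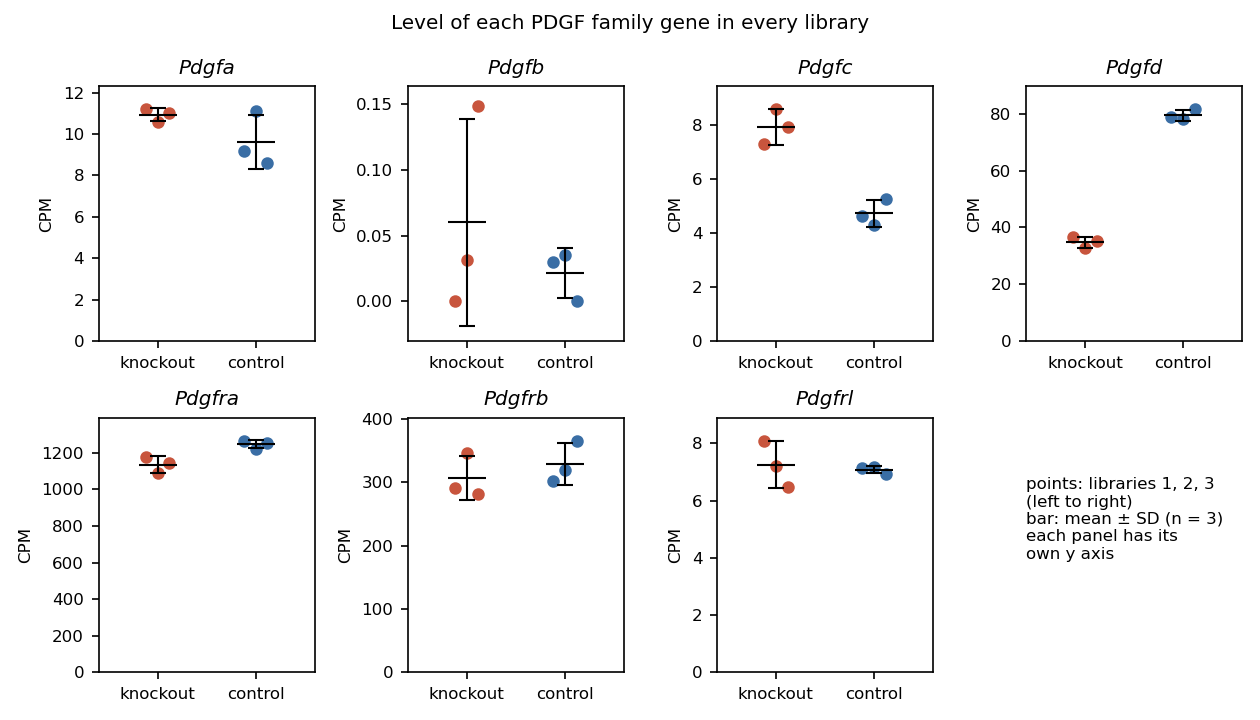
Level of each of the 7 genes in CPM (y axis, separate for each panel) in the 3 knockout (left) and 3 control (right) libraries, with mean ± SD. Pdgfd (32.6 to 36.5 against 78.1 to 81.7 CPM) and Pdgfc (7.29 to 8.6 against 4.29 to 5.27 CPM) are separated by a wide gap, Pdgfra by a narrow one, and the others overlap.

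Pdgfra, the alpha receptor gene, was the most abundant member. Pdgfra (chromosome 5, 75152292 to 75198215, plus strand) was at 1176, 1087 and 1143 CPM in the knockout libraries, against 1267, 1223 and 1253 CPM in the control libraries. The highest knockout library lay just below the lowest control library. The log2 fold change was -0.14 (SE 0.048), 1.1-fold lower, and it was -0.10 (SE 0.048) without the 2 libraries that stood apart.

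The beta receptor gene Pdgfrb, on chromosome 18, was at 291, 346 and 282 CPM in the knockout libraries, against 302, 319 and 366 CPM in the control libraries. The groups overlapped, and in each group the highest value belonged to the library that stood apart on the second component. The log2 fold change was -0.10 (SE 0.092), and it was -0.12 (SE 0.046) without those 2 libraries. With 1 library left out it ran from -0.20 to -0.023, the first without knockout replicate 2 and the second without control replicate 3. Of 9 markers of pericytes and smooth muscle, 7 were tested, and 4 were called higher and 0 lower. Among all tested genes 11.9% were called higher and 10.5% lower. The 9 markers summed to 577 to 613 CPM in knockout and 520 to 537 CPM in control libraries. Most of these sums was Acta2, at 511 ± 16.9 CPM in knockout and 465 ± 14.8 CPM in control cells (SD, n = 3). Acta2 itself was not called (edgeR adjusted p = 0.0542). The part of these markers in the level of Pdgfrb was not tested.

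Pdgfrl encodes a protein that resembles the extracellular part of a PDGF receptor and has no kinase domain. Pdgfrl (chromosome 8, 40926212 to 40990785, plus strand) was at 8.09, 7.2 and 6.46 CPM in the knockout libraries, against 7.12, 7.16 and 6.93 CPM in the control libraries. The control libraries lay within the knockout range. The log2 fold change was 0.039 (SE 0.10), and -0.046 (SE 0.11) without knockout replicate 1.

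Across all genes, edgeR called 3346 of 14946 tested genes (22.4%), 1778 higher (11.9%) and 1568 lower (10.5%), with a median log2 fold change of -0.0017. Of the 7 family members 6 were tested and 2 were called, Pdgfc higher and Pdgfd lower. The groups did not overlap in 3 of the 6 tested members, Pdgfc, Pdgfd and Pdgfra, against 37.9% of all tested genes. Because this comparison was known when the family was chosen, nothing is read from either count.

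Levels of different genes were compared per kilobase of exon. In knockout cells the order was Pdgfra (113 ± 4.47 CPM per kb), Pdgfrb (55.9 ± 6.35), Pdgfd (11.0 ± 0.617), Pdgfa (3.51 ± 0.102), Pdgfrl (2.32 ± 0.262), Pdgfc (1.56 ± 0.129) and Pdgfb (0.0145 ± 0.0189; SD, n = 3 throughout). In control cells it was the same, with Pdgfra at 124 ± 2.26 CPM per kb, Pdgfrb at 60.0 ± 6.02, Pdgfd at 25.2 ± 0.594, Pdgfa at 3.08 ± 0.413, Pdgfrl at 2.26 ± 0.0386, Pdgfc at 0.93 ± 0.0981 and Pdgfb at 0.00522 ± 0.00457 (SD, n = 3). For each of the 6 neighbouring pairs in this order the libraries of a group did not overlap, in either group. With the longest protein-coding transcript as the length, chosen after seeing the data, the order of the group means was the same. The means of Pdgfa and Pdgfrl then came close, at 5.31 and 4.68 CPM per kb in knockout cells. In control cells they were 4.66 and 4.57 CPM per kb. With this length the libraries of Pdgfa and Pdgfrl overlapped in both groups, so the order of this pair depends on the length used.

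**Figure D2:**
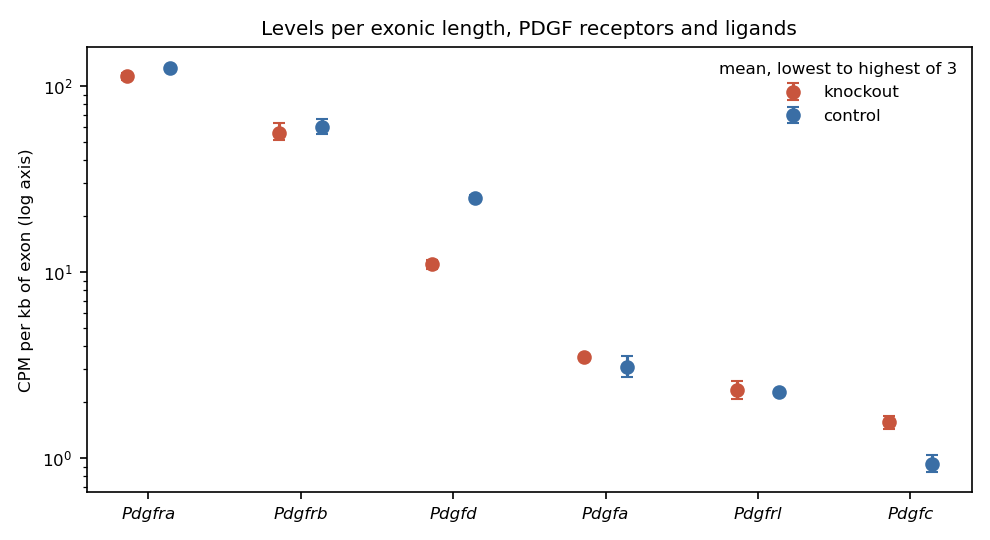
Mean level per kilobase of exon (CPM per kb, log axis) of 6 members in knockout (left of each pair) and control (right) libraries, with lines from the lowest to the highest of 3 libraries. Receptor RNA exceeds ligand RNA in both groups, and Pdgfd is the highest ligand in both, at 11.0 CPM per kb in knockout and 25.2 CPM per kb in control cells.

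The ratio of alpha to beta receptor RNA per length was 2.21, 1.72 and 2.21 in the knockout libraries, against 2.29, 2.09 and 1.87 in the control libraries. The ranges overlapped, and the lowest ratio of each group was in the library that stood apart. The summed level of both receptors was 169 ± 3.3 CPM per kb in knockout and 184 ± 6.36 CPM per kb in control cells (SD, n = 3).

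The make-up of the ligand RNA differed more. Of the summed level of the 4 ligands per length, Pdgfd held 69.7%, 67.0% and 68.5% in the knockout libraries, against 86.6%, 84.9% and 87.2% in the control libraries. Pdgfa held 21.7%, 22.0% and 21.7% in the knockout libraries, against 10.2%, 12.2% and 9.28% in the control libraries. Pdgfc held 8.63%, 10.9% and 9.58% in the knockout libraries, against 3.16%, 2.89% and 3.49% in the control libraries. For none of these 3 ligands did the shares overlap between the groups. The sum itself was 16.1 ± 0.591 CPM per kb in knockout and 29.2 ± 0.418 CPM per kb in control cells (SD, n = 3), while the level of Pdgfa itself overlapped between the groups. Pdgfd exceeded Pdgfc 7.12 ± 0.975 times per length in knockout cells and 27.3 ± 2.21 times in control cells (SD, n = 3). These shares rest on the same differences as above and are descriptions only.

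**Figure D3:**
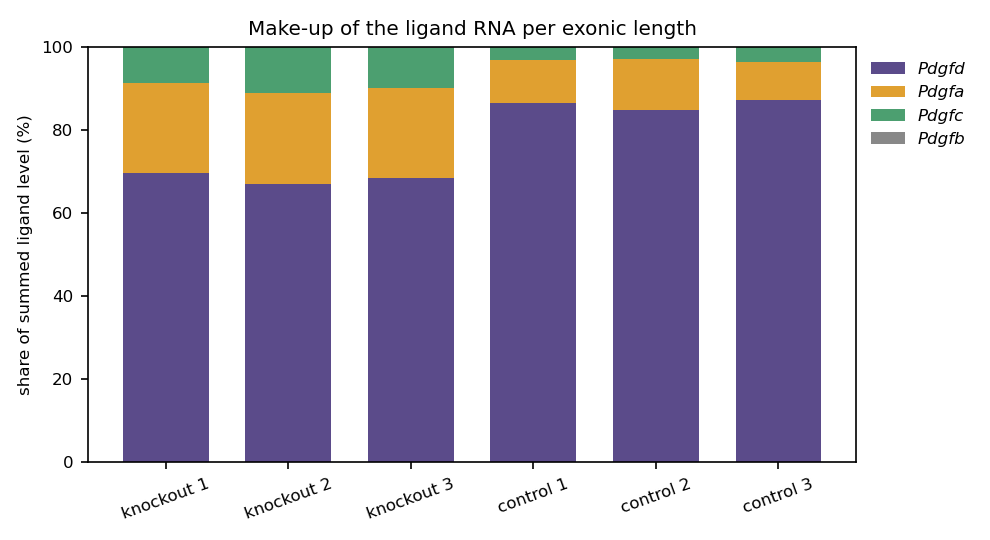
Share (%) of each ligand gene in the summed ligand level per kilobase of exon, for each knockout (left 3 bars) and control (right 3 bars) library. Pdgfd takes 67.0% to 69.7% in knockout and 84.9% to 87.2% in control libraries, and Pdgfb is too low to see.

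The genes whose pattern over the 6 libraries was most like that of Pdgfd were Pcsk5, Rab15, Plxnc1, Ngfr and Limch1, by the root mean square difference of centred log2 CPM among 10570 other genes. Their differences were 0.0824, 0.0964, 0.111, 0.121 and 0.126, against a median of 0.597. Pcsk5, which encodes a proprotein convertase, was at 12.7, 12.4 and 12.5 CPM in the knockout libraries, against 28.0, 31.7 and 28.2 CPM in the control libraries. Ngfr, the gene of the p75 neurotrophin receptor, was at 169, 179 and 181 CPM in the knockout libraries, against 371, 338 and 360 CPM in the control libraries. The likeness is mainly that of a difference of similar size between the groups. The genes most like Pdgfra were Zgrf1, Npat, Cybc1, Calr and Wdr53, at 0.0101 to 0.0148 against a median of 0.114. Their log2 fold changes were -0.15, -0.13, -0.14, -0.16 and -0.14, and they were picked for having this pattern.

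Beyond the family, 91 genes of the PDGF pathway were listed by role and 89 could be tested. Of these, 18 rose and 10 fell in knockout cells (31.5% called, against 22.4% of all tested genes), and 61 were not called. Their median log2 fold change was 0.050. The list was drawn up by role and not picked for how its genes moved, but earlier results of these data were known. Some of its genes had appeared there, so nothing is read from the called share. Without knockout replicate 2 the number that fell was 16, and without knockout replicate 3 it was 6 and the total called was 18. Adjusted p-values in the following are from edgeR's quasi-likelihood test over all tested genes.

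Among proteins that process ligands or bind them outside the cell, 2 of 10 tested genes rose, 2 fell and 6 were not called. The called share was 40%, against 22.4% of all tested genes. Plau, the gene of urokinase, a protease reported to activate PDGF-DD, fell to 49.0, 48.1 and 52.7 CPM in the knockout libraries, against 61.8, 59.4 and 68.6 CPM in the control libraries, without overlap (log2 fold change -0.34, SE 0.063, adjusted p = 0.00138). Plat, the gene of tissue plasminogen activator, which activates PDGF-CC, was at 245 ± 3.95 CPM in knockout and 257 ± 1.24 CPM in control cells (SD, n = 3) and was not called (edgeR adjusted p = 0.319). Pcsk5 fell (log2 fold change -1.23, SE 0.074, adjusted p = 3.56e-07), whereas its relative Pcsk6 rose to 11.3 ± 0.459 CPM in knockout cells, against 7.81 ± 0.12 CPM in control cells (SD, n = 3; adjusted p = 4.51e-04). Furin, whose product cuts the A and B chain precursors, was at 23.2 ± 5.9 CPM in knockout and 19.8 ± 2.44 CPM in control cells (edgeR adjusted p = 0.432). Plat and Furin fall outside the naming rule and were picked with their values known. Nrp1, a co-receptor gene, rose 1.12-fold (adjusted p = 0.0315), but was not called when any 1 of the libraries except knockout replicate 2 was left out (adjusted p of 0.00809 to 0.132 across the alternatives).

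Of 21 genes of receptor adaptors and effectors, 5 rose, 3 fell and 13 were not called (38.1% called, against 22.4% of all tested genes). Pik3cb, which encodes a catalytic subunit of PI 3-kinase, rose 1.62-fold to 26.3 ± 0.911 CPM in knockout cells, against 16.3 ± 0.224 CPM in control cells (SD, n = 3; adjusted p = 6.67e-06). The SH2 adaptor gene Grb7 rose 3.03-fold at a low level, 1.53 ± 0.294 CPM in knockout and 0.491 ± 0.131 CPM in control cells (adjusted p = 4.67e-04), and its relative Grb14 rose 1.44-fold (adjusted p = 0.00134). Slc9a3r2, the gene of a PDZ scaffold that binds PDGF receptors, fell 1.33-fold (adjusted p = 1.16e-04). The Src family kinase gene Fyn fell 1.17-fold (adjusted p = 0.0185) and the RAS GTPase activator gene Rasa1 1.12-fold (adjusted p = 0.0428). Fyn was not called without knockout replicate 1 or 3 or control replicate 2 or 3 (0.00556 to 0.0879 across the alternatives). Rasa1 was not called by DESeq2, by limma-voom, with upper-quartile scaling, with the CPM filter, or without knockout replicate 1 or 3 or control replicate 1 or 2 (0.00623 to 0.189).

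Of 21 genes of the RAS-MAPK, AKT and STAT relay, 3 rose, 4 fell and 14 were not called. The called share was 33.3%, against 22.4% of all tested genes. Stat5a rose 1.32-fold (39.4 ± 3.59 CPM in knockout and 29.8 ± 2.2 CPM in control cells, SD, n = 3; adjusted p = 0.00167) and Akt2, the AKT gene best known for insulin action, rose 1.21-fold (adjusted p = 8.25e-04). The cytokine receptor kinase gene Jak1 fell 1.23-fold (364 ± 11.3 CPM in knockout and 448 ± 7.51 CPM in control cells; adjusted p = 3.53e-04). Sos2, the gene of a RAS exchange factor, rose 1.19-fold (adjusted p = 0.0258) and Akt1 fell 1.12-fold (adjusted p = 0.0161). Sos2 was not called without knockout replicate 1 or 3 or control replicate 1 (0.0117 to 0.14 across the alternatives), nor Akt1 without knockout replicate 3 or control replicate 1 or 2 (0.00208 to 0.093).

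Of 15 negative regulators, 3 rose, 0 fell and 12 were not called (20% called, against 22.4% of all tested genes). The MAP kinase phosphatase genes Dusp4 and Dusp6 rose 1.42-fold and 1.41-fold (adjusted p = 3.65e-05 and 1.83e-04), to 48.9 ± 2.08 and 24.4 ± 0.957 CPM in knockout cells, against 34.5 ± 1.63 and 17.3 ± 0.973 CPM in control cells (SD, n = 3). Errfi1, which encodes an inhibitor of EGF receptor family kinases, rose 1.29-fold (adjusted p = 2.65e-04). All 3 were called in each of the 14 alternative fits.

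Of 16 immediate early and growth response genes, 3 rose, 1 fell and 12 were not called (25% called, against 22.4% of all tested genes). The zinc finger gene Egr2 fell to 116, 116 and 109 CPM in the knockout libraries, against 164, 154 and 182 CPM in the control libraries, without overlap (log2 fold change -0.55, SE 0.060, adjusted p = 2.03e-05). Ier3 rose 1.3-fold (adjusted p = 0.0378) and the hyaluronan synthase gene Has2 1.18-fold (adjusted p = 0.0341), both with overlapping libraries. Egr3, another zinc finger gene, rose 2.09-fold (adjusted p = 0.0452) on 15, 16 and 11 counts in the knockout libraries. The control libraries had 8, 8 and 4 counts. Egr3 is outside the naming rule and was named with its values known, and it was not followed in the alternative fits. Ier3 was not called without knockout replicate 1 or 3 or control replicate 1 or 2 (7.62e-05 to 0.174 across the alternatives), nor Has2 without knockout replicate 1 or 3 or control replicate 2 or 3 (6.75e-04 to 0.163).

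The other class III receptor genes were far less abundant than Pdgfra and Pdgfrb. Kit, the stem cell factor receptor gene, rose to 1.4, 1.85 and 1.87 CPM in the knockout libraries, against 0.744, 1.06 and 1.21 CPM in the control libraries (log2 fold change 0.78, SE 0.22, adjusted p = 0.0198). It was not called by DESeq2 or without knockout replicate 3 or control replicate 1 (0.0042 to 0.116 across the alternatives). Its ligand gene Kitl rose 1.36-fold to 148 ± 7.79 CPM in knockout cells, against 109 ± 6.24 CPM in control cells (SD, n = 3; adjusted p = 7.00e-05). Csf1r, the macrophage colony-stimulating factor receptor gene, was at 2.75 ± 0.287 CPM in knockout and 2.85 ± 0.514 CPM in control cells (adjusted p = 0.814). The far more abundant gene Hmgxb3 covers 15.12% of its exonic sequence from the opposite strand. Its ligand genes Csf1 (372 ± 41.2 CPM in knockout and 332 ± 23.3 CPM in control cells) and Il34 (0.604 ± 0.0541 CPM in knockout and 0.513 ± 0.119 CPM in control cells) were not called (adjusted p = 0.163 and 0.649). Csf1 was called with no filter on low counts (adjusted p = 0.00667), without knockout replicate 1 (0.0373) and without both libraries that stood apart (0.0473), and its log2 fold change was 0.17, and 0.074 without knockout replicate 2. Flt3 had 1 count in all 6 libraries, in knockout replicate 2, and its ligand gene Flt3l was at 2.55 ± 0.337 CPM in knockout and 2.64 ± 0.247 CPM in control cells (adjusted p = 0.855).

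**Figure D4:**
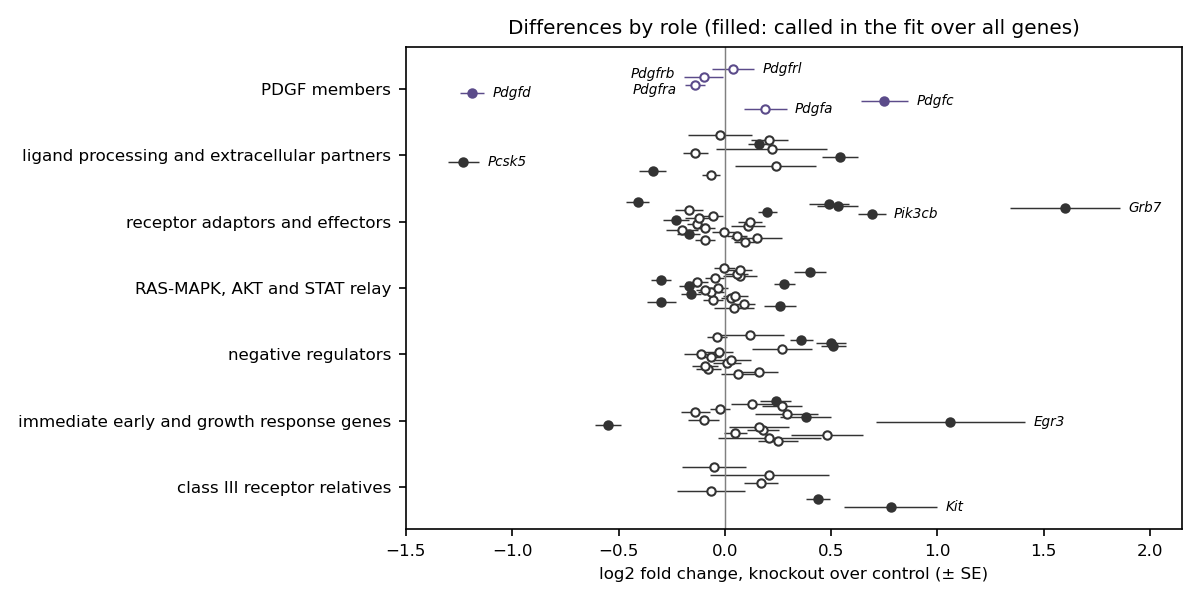
Log2 fold change (knockout over control, x axis, with SE) of the 6 tested PDGF members, at the top, and of 89 tested pathway genes by role. Filled points were called in the fit over all genes. Pdgfd (-1.19) and Pcsk5 (-1.23) stand at the left, and most pathway genes lie near 0.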

How the data were processed

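The authors deposited raw read counts for 49671 Ensembl genes. The 6 columns were matched to samples by title, and the genotype label gave the group. GRCm38, featureCounts 1.5.1, STAR 2.5.2b and DESeq2 1.16.0 are listed, without roles, per the submitters' processing notes. The annotation release, strand setting and handling of multi-mapping reads of the counting were not given in the sources used. Symbols were matched for 49326 identifiers. Coordinates and exonic lengths (union of exons) are from GENCODE M21, promoters from RefSeq (GRCm38.p6).

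Knockout was compared with control by the robust quasi-likelihood test of edgeR 4.0.16 (R 4.3.3) with TMM scaling, the filterByExpr filter and group as the model. A gene was called where its p, adjusted by Benjamini and Hochberg over 14946 genes, was under 0.05. SE is the log2 fold change divided by the square root of F. Members and lists were chosen with earlier results of these data known. Named genes were Tcf7l2, the 7 members, the 7 class III genes, up to 3 called pathway genes per role and direction with the largest change and an average log2 CPM of at least 0 (the 2 most abundant where none was called), and the 5 genes most like Pdgfd and Pdgfra (average log2 CPM of at least 2, no clone names; log2 CPM with a prior count of 2). Alternatives were other scalings and filters, DESeq2 1.42.0, limma-voom 3.58.1 and leaving out each library. Leaving out knockout replicate 2 and control replicate 3 together, and the transcript length, were chosen after seeing the data. 1 gene that the naming rule selects is not reported here.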

Additional observations from a re-analysis of the deposited data

How the results depend on the processing

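Over 14 alternative fits, given as a description because the family was picked with this comparison known, the log2 fold change ran from -1.23 to -1.13 for Pdgfd, from 0.68 to 0.82 for Pdgfc, from 0.11 to 0.29 for Pdgfa, from -0.20 to -0.023 for Pdgfrb and from -0.16 to -0.10 for Pdgfra. With total count scaling and in limma-voom Pdgfra (-0.14 in both) also passed the threshold, so that 3 members did there, 2 of them lower, and 2 elsewhere. Pdgfrl changed sign without knockout replicate 1 (-0.046; -0.046 to 0.11 with 1 library left out). Among all genes, 3346 were called, and 2145 (without control replicate 1) to 3475 (without knockout replicate 2) with 1 library left out and 3957 without both libraries that stood apart. Of the pathway genes 28 were called, and 18 (without knockout replicate 3) to 33 (without knockout replicate 2) with 1 library left out and 36 without both. Csf1r changed sign without knockout replicate 2 (0.011) or control replicate 1 (0.089; -0.19 to 0.089 with 1 library left out), and Flt3l without knockout replicate 3 (0.039) or control replicate 1 (0.033), none of them called. The cause was not tested. No paired analysis was possible because no replicate number is shared between the groups in the labels. Depth limits Pdgfb, at 0 to 4 counts per library, and Flt3.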
